A study of Mus musculus with 6 samples.

Results

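The 9 myogenic regulators described here were *Pax7*, *Myf5*, *Myod1*, *Myog*, *Myf6*, *Six4*, *Mef2a*, *Mef2c* and *Mef2d*, and their members in the data were the NF-YA binding regions (peaks) that the deposited table assigned to these gene symbols. Of 9056 peaks, 6191 carried a gene and 7 belonged to the regulators, namely 2 at *Myod1*, 2 at *Six4* and 3 at *Mef2d*. The other 6 regulators had no annotated peak. The study mapped NF-YA by CUT&RUN, in which an antibody-tethered nuclease releases the DNA under a bound protein, in muscle stem cells (MuSCs). The cells came from wild-type C57BL/6 mice and were expanded in culture, where they were activated and proliferating. The series held 6 libraries, 3 with the NF-YA antibody and 3 with IgG, and the values analysed were those of the 3 NF-YA libraries. The study's methods describe the isolation of MuSCs by removal of cells with Sca1, CD45 or CD31 and by selection for integrin α7 or for a Pax7 reporter, and which route gave these libraries, like the age of the mice, is not given in the labels. There was 1 cell state only, so no change of binding between conditions could be measured.

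NF-Y is a trimer of NF-YA, NF-YB and NF-YC that recognises the CCAAT box, and NF-YA is the subunit that reads the sequence. PAX7 marks MuSCs, MYF5 and MYOD1 commit them to the muscle lineage, and MYOG and MYF6 act later, during differentiation and in the fibre. MYF5, MYOD1, MYOG and MYF6 are basic helix-loop-helix proteins that bind the E-box, SIX4 is a homeodomain protein that acts upstream of them, and MEF2A, MEF2C and MEF2D are MADS-box partners of the same programme.

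All 7 peaks of the regulators carried a CCAAT pentamer within 50 bp of the peak centre on one strand or the other, against 52.9% of all peaks. The boxes are shown with 10 bases on each side, read 5′ to 3′ on the strand of the CCAAT, with the pentamer in capitals, as taken from the mm10 genome.
Mef2d TSS peak, chr3:88142300-88142324, minus strand: aagcagggggCCAATgggagggccc
Mef2d upstream peak, chr3:88140353-88140377, plus strand: ggccagccaaCCAATcacagccatg
Mef2d intron peak, chr3:88146235-88146259, minus strand: tgttgtctgcCCAATgctaggggag
Six4 TSS peak, chr12:73113484-73113508, minus strand: tgcgaaatagCCAATggggtggctc
Six4 intron peak, chr12:73110542-73110566, minus strand: gtcaccctcaCCAATggcgacggct
Myod1 downstream peak, chr7:46380630-46380654, minus strand: tggcatatgtCCAATggacaagtta
Myod1 downstream peak, chr7:46380642-46380666, plus strand: tggacatatgCCAATcctgtcctca
These are the boxes within 50 bp of the centre in 6 of the peaks, and they differ in the bases around the pentamer. A longer consensus, with purines at both bases before CCAAT, C or G after it and then a purine, stood near the centre of 3 of the 7 peaks, against 25.0% of all peaks. Those were the *Six4* TSS peak, the *Mef2d* TSS peak and the *Mef2d* upstream peak. In all, 11 boxes lay in the 7 peaks, of which 8 were within 50 bp of the centre, and 4 read on the strand of their gene and 7 on the opposite strand.

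The *Mef2d* TSS peak, rich in G and C with 1 box, and the *Myod1* downstream peak, with 4 boxes, show the range among the regulators, and both are printed on the plus strand, which is the strand of both genes. Capitals mark CCAAT or its complement ATTGG. The first was cut where the first exon begins.
Mef2d TSS peak, chr3:88142221-88142365: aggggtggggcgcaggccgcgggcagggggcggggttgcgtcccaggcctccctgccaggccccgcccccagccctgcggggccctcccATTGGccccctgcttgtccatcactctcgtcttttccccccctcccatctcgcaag
Myod1 downstream peak, chr7:46380551-46380819: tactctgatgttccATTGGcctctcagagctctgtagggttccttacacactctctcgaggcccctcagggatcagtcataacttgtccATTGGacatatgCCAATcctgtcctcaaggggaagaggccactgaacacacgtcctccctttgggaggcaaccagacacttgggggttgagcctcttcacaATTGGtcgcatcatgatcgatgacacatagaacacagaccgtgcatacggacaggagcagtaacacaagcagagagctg
The G and C content was 73.3% over the whole *Mef2d* TSS peak and 52.0% over the *Myod1* downstream peak. The median was 59.3% over the 7 peaks, 55.9% over all peaks and 59.4% over the peaks with a gene symbol.

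Other motifs were searched in the same windows on both strands. The E-box CANNTG occurred in 3 of 7 peaks, against 44.0% of all peaks. These were the *Mef2d* upstream peak, the *Myod1* downstream peak and the *Six4* intron peak. Of the E-box variants that CANNTG includes, CAGCTG was found in 0 of 7 windows, against 15.1%, and CACCTG in 1 of 7, the *Mef2d* upstream peak, against 5.49%. Outside its window, the *Myod1* TSS peak held a CAGCTG at -133 to -128 bp from the centre on the plus strand. The GC box GGGCGG was found in 3 of 7 peaks, against 21.3%, and these were the TSS peaks of *Myod1*, *Six4* and *Mef2d*. The MEF2 core, CTA and TAG set 4 bases apart, was in 0 of 7 windows against 1.39%, and the MEF3 core TCAGGTT, bound by the family of SIX4, was in 0 of 7 against 1.17%. A match is a description of the letters and was not taken as a bound site.

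**Figure D1:**
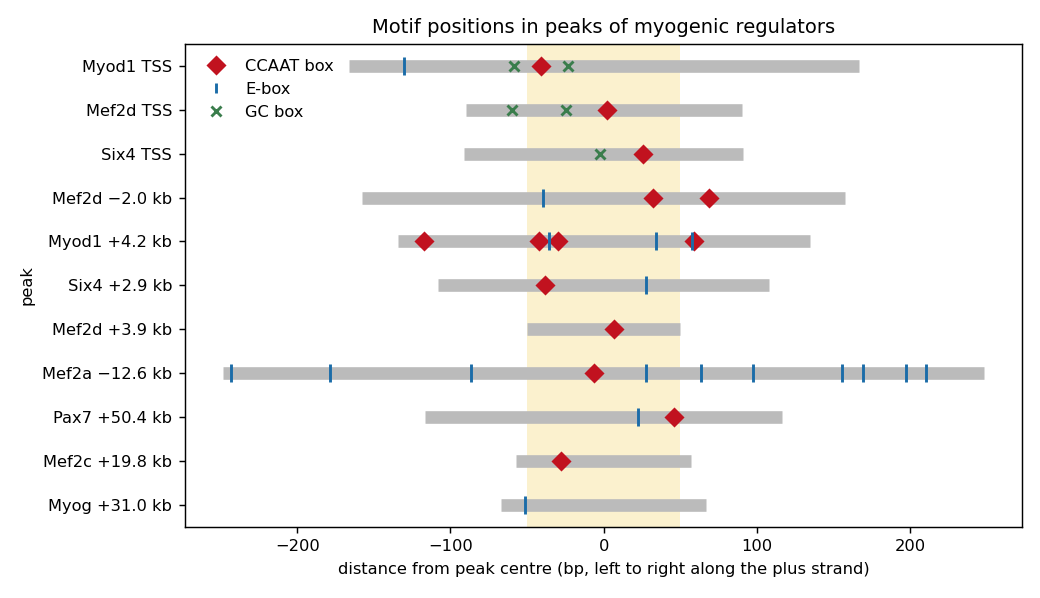
Positions of CCAAT boxes (diamonds), E-boxes CANNTG (bars) and GC boxes GGGCGG (crosses) along 11 peaks, as distance in bp from each peak's centre on the plus strand, with the peak length as a grey bar and the window within 50 bp of the centre shaded. The upper 7 peaks are annotated to *Myod1*, *Mef2d* and *Six4*, each with a CCAAT box in the shaded window, and the lower 4 are the nearest peaks of *Mef2a*, *Pax7*, *Mef2c* and *Myog*, of which *Myog* has none.

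Levels are given as normalised reads per peak, the authors' scaled and rounded read counts, in which a size factor brings the reads in peaks to a common scale. One read was worth 0.670, 1.48 and 1.02 normalised reads in replicates 1, 2 and 3, so the libraries held about 476991, 226921 and 334615 reads in peaks. A floor of 3 reads then stood at 2.01, 4.43 and 3.06 normalised reads, and it covers counting error only. Of the 7 peaks, 6 were above that floor in every library, against 80.7% of all peaks. The libraries also differed in their sequencing. The study's reporting summary lists shorter reads and fewer uniquely mapped reads for replicate 1 than for replicates 2 and 3, but more called peaks. Which libraries called each peak is not given here. How far the 7 peaks, or the shares of all peaks, rest on replicate 1 was not tested.

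*Myod1* (ENSMUSG00000009471, plus strand of chromosome 7, 46376474 to 46379099) encodes the determination factor of the muscle lineage and had the highest of the annotated peaks, per peak and per kb. Its TSS peak (chr7:46376256-46376588, 333 bp, centre 52 bp from the start by the deposited annotation) held 54, 44 and 58 normalised reads, in the order of replicates 1, 2 and 3 that is kept throughout, and averaged 52.0 ± 7.21 (SD, n = 3) from about 168 reads. That was rank 1650 of 9056, with 81.7% of peaks lower. Its CCAAT box lay 94 bp upstream of the start on the strand opposite to the gene, 41 bp from the peak centre. The replicates varied by 13.9% (CV), and counting alone gives 14.2%.

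A second *Myod1* peak (chr7:46380551-46380819, 269 bp) lay 4211 bp from the start, beyond the 3′ end of the gene and between genes. It held 22, 19 and 22 normalised reads (21 ± 1.73, SD, n = 3), from about 68 reads. Its 4 CCAAT boxes were the most in any of the 7 peaks. Per kb of peak, the TSS peak had 156 ± 21.7 and the downstream peak 78.1 ± 6.44 normalised reads (SD, n = 3). The TSS peak was higher in 3 of 3 libraries, by 0.99 ± 0.09 on the log2 scale per kb (SD, n = 3), and the replicates did not overlap.

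*Six4* (ENSMUSG00000034460, minus strand of chromosome 12, 73099609 to 73113456) had a peak at the start (chr12:73113380-73113561, 182 bp, centre 14 bp away) with 25, 27 and 19 normalised reads (23.7 ± 4.16, SD, n = 3). Its CCAAT box stood 40 bp upstream of the start on the strand of the gene and 26 bp from the centre. The box with the bases printed around it overlapped an annotated exon. The second peak (chr12:73110485-73110700, 216 bp), in an intron 2864 bp from the start, held 11, 9 and 12 (10.7 ± 1.53, SD, n = 3), from about 34 reads. The TSS peak was the higher one in all 3 libraries, by 1.39 ± 0.46 on the log2 scale per kb (SD, n = 3), with no overlap between replicates.

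*Mef2d* (ENSMUSG00000001419, plus strand of chromosome 3, 88142372 to 88172086) was the regulator with the most annotated peaks. The upstream peak (chr3:88140177-88140491, 315 bp, 2038 bp from the start) held 29, 38 and 31 normalised reads (32.7 ± 4.73, SD, n = 3). The TSS peak (chr3:88142221-88142400, 180 bp, 62 bp from the start) held 21, 18 and 32 (23.7 ± 7.37, SD, n = 3), with its CCAAT box 2 bp from the centre and 60 bp upstream of the start. Replicate 3 stood above the other two there, and the CV of 31.1% exceeded the 21.1% that counting gives, which was not so for the other 6 peaks.

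The third *Mef2d* peak (chr3:88146191-88146290, 100 bp), in an intron 3868 bp from the start, held 5, 4 and 4 normalised reads (4.33 ± 0.577, SD, n = 3) from about 14 reads, which did not clear the floor in replicate 2. Only 5.79% of peaks were lower. Per kb the *Mef2d* TSS peak exceeded the intron peak by 1.57 ± 0.51 on the log2 scale (SD, n = 3) without overlap. It was not separated from the upstream peak, at 0.31 ± 0.56 on the log2 scale per kb (SD, n = 3), higher in 2 of 3 libraries.

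Between genes the peaks are compared per kb, since their lengths ran from 100 to 333 bp. The order of the level per kb was *Myod1* TSS at 156 ± 21.7, *Mef2d* TSS at 131 ± 41.0, *Six4* TSS at 130 ± 22.9, *Mef2d* upstream at 104 ± 15, *Myod1* downstream at 78.1 ± 6.44, *Six4* intron at 49.4 ± 7.07 and *Mef2d* intron at 43.3 ± 5.77 (SD, n = 3). The TSS peaks of the 3 genes overlapped in their replicates, with *Myod1* over *Six4* at 0.27 ± 0.45 and *Mef2d* over *Six4* at -0.01 ± 0.70 on the log2 scale (SD, n = 3). *Mef2d* upstream and *Myod1* downstream did not overlap, nor did *Myod1* downstream and the *Six4* intron peak, which differed by 0.67 ± 0.10 on the log2 scale (SD, n = 3). The *Six4* and *Mef2d* intron peaks overlapped. Of 12 pairs compared per kb, 6 had no overlap. Those pairs were the neighbours in the per-kb order and others chosen by gene or position, not all possible pairs. The order was read from these same values, so the count of 6 depends on that choice. With 3 libraries an exact two-sided sign-flip permutation cannot go below p = 0.25, so no pair could pass a threshold. The study's reporting summary calls the 3 NF-YA libraries biological replicates, and the labels do not say whether they came from separate cultures.

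**Figure D2:**
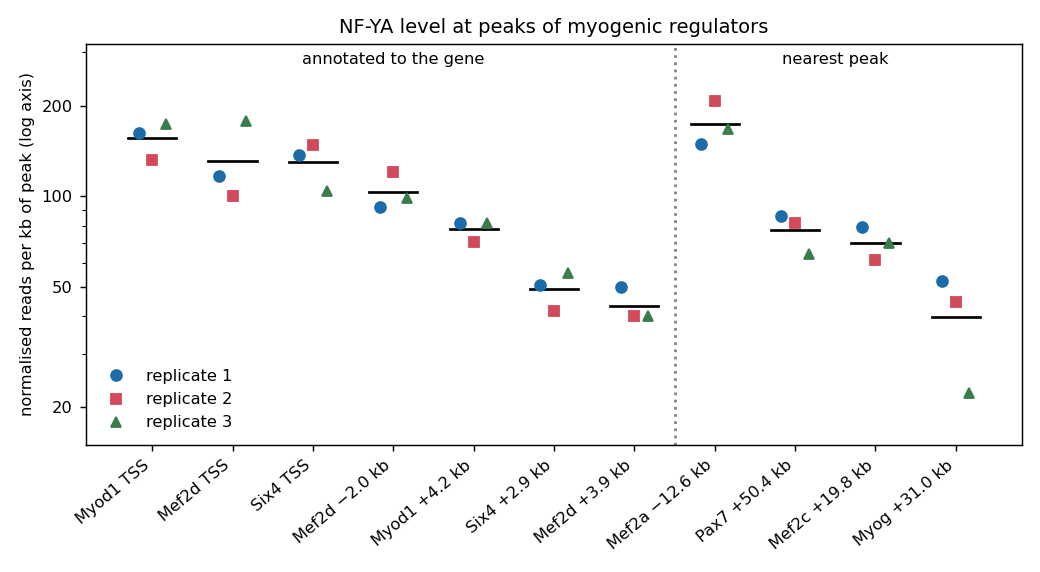
Normalised NF-YA reads per kb of peak (log axis) in replicates 1, 2 and 3 (circles, squares, triangles), with the mean as a line, at the 7 annotated peaks and, right of the dotted line, at the nearest peak of 4 regulators that had none. The TSS peaks of *Myod1*, *Mef2d* and *Six4* overlap in their replicates, and the intron peaks of *Six4* and *Mef2d* are the lowest of the annotated ones.

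The median level of the 7 peaks was 23.7 normalised reads, against 15 over all peaks, and per kb it was 104 against 79.5. Per library, the median of the regulators' peaks was 22, 19 and 22 and that of all peaks 14, 16 and 15, a log2 ratio of 0.48 ± 0.21 (SD, n = 3). Set against only the peaks that carry a gene symbol, with a median of 21.7, the ratio turned to -0.05 on the log2 scale. Per kb the median of the peaks with a gene symbol was 99.5. Of the 7 peaks, 3 were centred less than 1000 bp from their gene's TSS, against 60.5% of gene-annotated peaks. No start of another gene lay within 1000 bp of any of the 7.

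Of the 9 regulators, 3 had an annotated peak, against 19.0% of protein-coding genes. The deposited annotation looks within 10000 bp of a start, and the regulators without an annotated peak differed in how far the nearest one lay. For *Mef2a* (ENSMUSG00000030557, minus strand of chromosome 7, 67231163 to 67372858), a MADS-box factor, the nearest peak was 12628 bp upstream (chr7:67385239-67385735, 497 bp, between genes). It held 74, 103 and 83 normalised reads (86.7 ± 14.8, SD, n = 3), with 89.3% of peaks lower. Per kb it had 174 normalised reads, and its CCAAT box lay 6 bp from the centre.

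For *Pax7* (ENSMUSG00000028736, minus strand of chromosome 4, 139737062 to 139833528), the paired-box factor that marks MuSCs, a peak lay in an intron of the gene, 50424 bp from the start (chr4:139782989-139783221). It held 20, 19 and 15 normalised reads (18.0 ± 2.65, SD, n = 3). For *Mef2c* (ENSMUSG00000005583, plus strand of chromosome 13, 83504034 to 83667080), an intron peak (chr13:83523795-83523908) stood 19817 bp from the start of the gene but 378 bp from the start of one of its 31 transcripts, with 9, 7 and 8 normalised reads (8 ± 1.00, SD, n = 3). The nearest peaks of *Mef2a* and *Pax7* are shown on the strand of the gene, which is minus for both, with the box in capitals, because they had the highest levels among the nearest peaks of regulators without a row.
Mef2a nearest peak, centre, chr7:67385387-67385586: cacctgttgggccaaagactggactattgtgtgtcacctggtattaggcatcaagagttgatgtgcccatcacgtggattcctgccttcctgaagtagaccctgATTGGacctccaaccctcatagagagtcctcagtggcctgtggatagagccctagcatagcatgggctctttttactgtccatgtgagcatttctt
Pax7 intron peak, chr4:139782989-139783221: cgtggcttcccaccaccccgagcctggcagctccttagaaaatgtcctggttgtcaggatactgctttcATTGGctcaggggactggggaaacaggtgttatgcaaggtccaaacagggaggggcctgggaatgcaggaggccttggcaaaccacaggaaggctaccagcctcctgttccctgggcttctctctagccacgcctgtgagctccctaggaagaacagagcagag

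*Myog* (ENSMUSG00000026459, plus strand of chromosome 1, 134289989 to 134292548), the differentiation factor, had its nearest peak 30988 bp away, in an intron of *Ppfia4*. That peak held 7, 6 and 3 normalised reads (5.33 ± 2.08, SD, n = 3) and no CCAAT. *Myf5* (ENSMUSG00000000435) and *Myf6* (ENSMUSG00000035923), neighbours on chromosome 10, shared a nearest peak, assigned to *Syt1*, at 1524898 and 1516295 bp. It held 13, 3 and 13 normalised reads. Neither had a peak within 100 kb, as was so for 41.2% of protein-coding genes. For 95.7% of protein-coding genes the nearest peak was closer than for *Myf5*, for 48.5% closer than for *Pax7* and for 1.58% closer than for *Six4*.

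**Figure D3:**
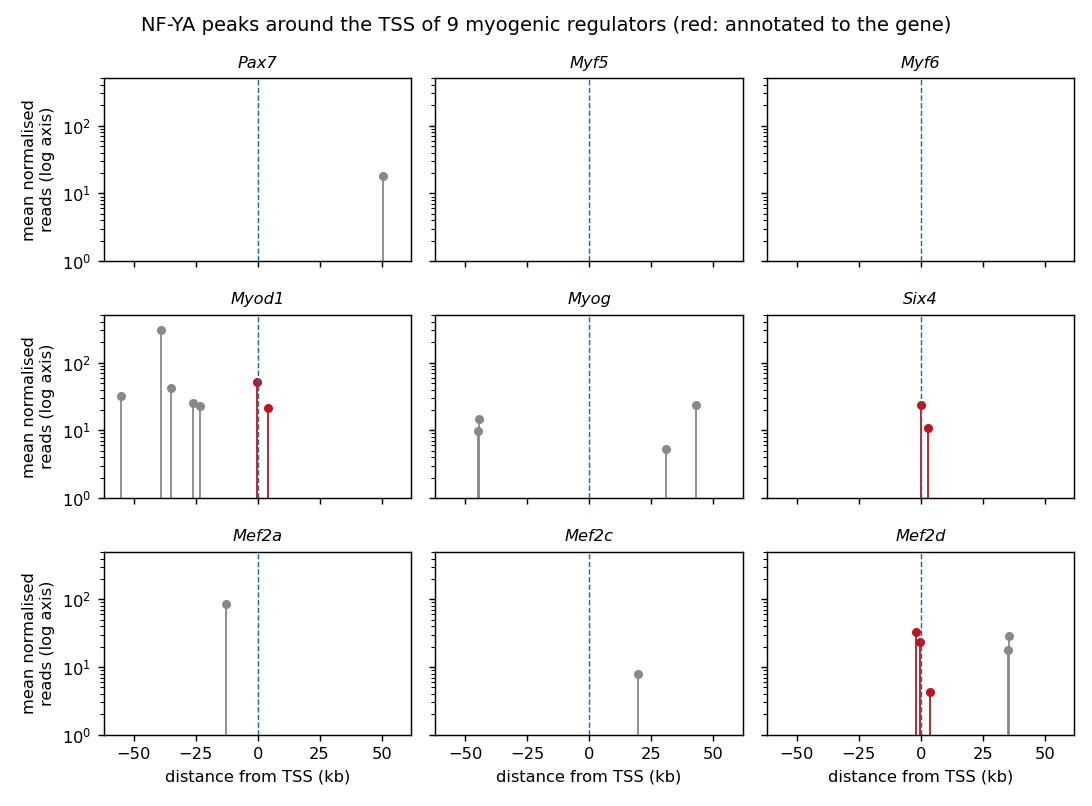
Mean normalised NF-YA reads of each peak (log axis) against the distance of its centre from the TSS in kb, for each of the 9 regulators, with annotated peaks in red and others in grey. *Myod1* has a run of peaks on its upstream side, some of them set by the deposited annotation at another start. The panels of *Myf5* and *Myf6* are empty.

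The number of peaks within 100 kb of the start was 13 for *Myod1*, 7 for *Myog*, 5 for *Mef2d*, 4 for *Six4* and *Mef2a* each, 1 for *Pax7* and *Mef2c* each and 0 for *Myf5* and *Myf6*. As many as the 13 of *Myod1* were found at 0.729% of protein-coding genes, and as many as the 7 of *Myog* at 6.27%.

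Of the RefSeq promoters, from 250 bases before to 50 after a start, 7 regulators had 10 entries, and 4 of the 10 held CCAAT, against 37.4% of all promoters. The promoter of *Mef2d* and 1 of 2 of *Six4* held the box and overlapped the peaks above, whereas 2 of 3 promoters of *Mef2c* held boxes but overlapped no peak. Of those promoters, 1 (chr13:83523406-83523705) ended just short of the *Mef2c* intron peak (chr13:83523795-83523908). The promoters of *Pax7*, *Myf5*, *Myog* and *Mef2a* held no CCAAT in this window. *Myod1* and *Myf6* were not in the promoter table.

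Genes that act with the regulators were counted in 5 lists, of 94 genes in all. Of these, 43 had an annotated peak, to be read against the 19.0% of protein-coding genes. The lists were chosen with earlier results of these data known, so a share above 19.0% is not a test of enrichment. The count was 33 with a mean of at least 10 normalised reads and 54 by any transcript start within 10000 bp. The 19.0% is no background for those other rules, for which the share of all protein-coding genes is not given. The genes named are among the 3 of each list with the highest level per peak, which is not corrected for length. Among partners and inhibitors of the basic helix-loop-helix factors, 7 of 15 had a peak, among them *Id2* (100, 77 and 79 normalised reads), an inhibitor that binds E proteins, *Id4* at 79.0 ± 15.1 and the E protein gene *Tcf3* at 78.0 ± 16.5 (SD, n = 3). Among homeobox and paired-box genes and their EYA and DACH cofactors, 7 of 16 had one, with *Six5* at 81.7 ± 8.62 and *Pitx3* at 48.3 ± 7.23 (SD, n = 3). In the list of MEF2 partners and signalling, 6 of 17 had one, with *Srf* at 196 ± 42.0, 3084 bp from its start, *Mapk7* at 113 ± 4.93 and *Mrtfa* at 104 ± 7.51 (SD, n = 3).

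Of MuSC surface and quiescence genes 7 of 20 had a peak, among them the Notch targets *Hes1* at 92.0 ± 11.4 and *Heyl* at 49.0 ± 5.29, and the cadherin gene *Cdh15*, which ran from 43 to 83 between libraries. Of fusion and contractile genes 16 of 26 had one, with a median level of 10 normalised reads over 21 peaks. In that list the peak of *Mylpf*, a myosin light chain of fast fibres, held 469, 748 and 600 normalised reads (rank 13 of all peaks), while the fusion gene *Mymk* was at 44.3 ± 2.08 and *Tnnt3* at 42.7 ± 15.9 (SD, n = 3).

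**Figure D4:**
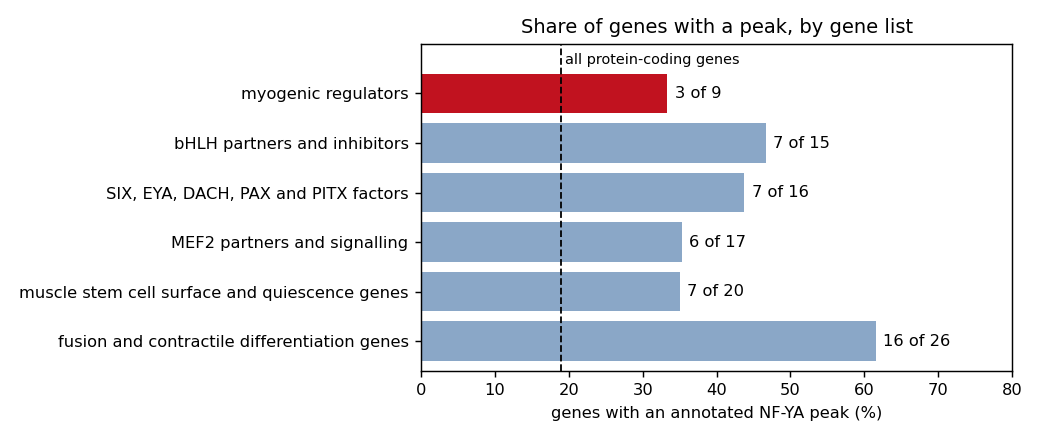
Share of genes (%) with an annotated NF-YA peak in the 9 regulators (red) and in 5 lists of related genes (blue), with the count beside each bar and the 19.0% of all protein-coding genes as a dashed line. The share is 33.3% for the regulators and runs from 35% to 61.5% in the lists. Regulators and lists were chosen with earlier results of these data known, so the dashed line is not a test of enrichment.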

How the data were processed

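NF-YA CUT&RUN in cultured wild-type MuSCs was measured in 3 libraries; IgG values were not analysed here, so the planned comparison of NF-YA with IgG was not run. The deposited values are a score: according to the methods and the submitters' processing notes, the authors trimmed reads (Trimmomatic 0.39), aligned them with STAR 2.7.9a to mm10, removed duplicates (Picard 2.25.5), called peaks per NF-YA library against IgG at an FDR of 0.05, unified them, counted reads with featureCounts, divided by DESeq2 1.30.0 size factors and rounded. Values were not corrected for peak length. The deposited nearest gene within 10000 bp of a start was used. There were 0 per-sample columns without a sample.

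The worth of 1 read was estimated from the spacing of low values, a step tested on simulated data. Motifs were read from the mm10 genome with pysam 0.24.0 and promoters from RefSeq (mm10), and transcript starts from GENCODE M21. Statistics used Python 3.11.15, numpy 2.4.6 and pandas 2.3.3. All 9 regulators, and per related list the 3 genes with the highest peak, were named, except 1 gene that is not reported here. Members and lists were chosen with earlier results of these data known.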

Additional observations from a re-analysis of the deposited data

How the results depend on the processing

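Over 7 results and 31 alternatives, 23 stayed within 1.5 times of a count or 1 SD of the replicates of another value, 7 moved further and 1 reversed. Within that tolerance, the regulators with a peak were 4 by any transcript start within 1000 or 10000 bp, the peaks above the floor were 7 with a floor of 1 read or without replicate 2, the peaks with CCAAT were 6 at a mean of at least 10, and the 43 genes of the related lists became 33 at a mean of at least 10 and 54 by any transcript start within 10000 bp. The number of regulators with a peak rose from 3 to 6 when a peak in the gene body or within 10000 bp counted. The share of all protein-coding genes is not given for that rule or for the other alternatives above. The 19.0% holds for the deposited annotation only and is no background for those counts. The median level of their peaks, 23.7, was 104 per kb and 32.7 for the highest peak of each regulator, and ran from 20.5 to 23.0 when each library was left out in turn. The 104 per kb, counted among the 7 that moved, is in another unit and cannot be set against 23.7. With the longer consensus, 3 of the 7 peaks held a box within 50 bp of the centre, in place of 7. A further box of that kind lay 117 bp from the centre of the *Myod1* downstream peak. Within 5000 bp of the start lay 7 peaks in place of 3, and the share of all gene-annotated peaks within that distance is not given here. The log2 ratio of the regulators' peaks to all peaks, 0.48, was 0.27 per kb and reversed to -0.048 against peaks with a gene symbol. The cause of the shift without replicate 3, to 20.5, was not tested.

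No paired analysis was possible because the values analysed came from 1 group, with no second group to pair by replicate number. Peaks were compared with each other within each library. Depth limits the weakest peaks: the *Mef2d* intron peak rests on about 14 reads and the nearest peak of *Myog* on about 17.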

Other observations

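The highest peak within 100 kb of the *Myod1* start was one that the deposited table gave to no gene, and it was singled out after its values were seen. It lay 38947 bp upstream, between genes (chr7:46337214-46337841), and held 284, 294 and 319 normalised reads (299 ± 18.0, SD, n = 3), rank 102 of 9056 peaks. It held 4 CCAAT boxes, of which 3 fall in the 200 bases at its centre, printed on the strand of *Myod1* with the boxes in capitals.
Peak upstream of Myod1, centre, chr7:46337428-46337627: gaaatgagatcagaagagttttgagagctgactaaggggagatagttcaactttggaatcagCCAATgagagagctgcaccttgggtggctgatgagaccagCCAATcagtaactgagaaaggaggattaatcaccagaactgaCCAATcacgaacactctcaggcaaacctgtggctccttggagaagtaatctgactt
Of the 13 peaks within 100 kb of *Myod1*, 7 had CCAAT within 50 bp of the centre, a share close to the 52.9% of all peaks. The next highest outside the *Myod1* TSS peak stood 34853 bp upstream, at 41.7 normalised reads. The deposited annotation set that peak 7751 bp from a start other than that of *Myod1*, without a gene symbol. The peaks 26091 and 23015 bp upstream were likewise set 1010 and 4087 bp from another start. Which gene these peaks act on was not tested.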
